A study of Rattus norvegicus with 27 samples.

Results

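The expression of 7 genes of the thyroid hormone system was examined in rat oligodendrocyte precursor cells: the direct T3 targets Klf9 and Hr, the receptors Thra and Thrb, the deiodinases Dio2 and Dio3, and the transporter Slco1c1. They were chosen by name, with earlier results of these data known. Every probe set of the array annotated with 1 of these symbols alone was taken, which gave 14 of the 31042 probe sets and 7 of the 14217 genes measured. All 7 genes were found. Klf9 has 3 probe sets, Thra 3, Thrb 4 and each of the others 1.

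Thyroid hormone acts in the nucleus through receptors encoded by Thra and Thrb, which bind DNA mostly as dimers with retinoid X receptors. Without hormone the receptors recruit corepressors, and binding of T3, the active hormone, exchanges these for coactivators. How much T3 reaches the receptor depends on transporters in the membrane, on the deiodinase encoded by Dio2, which makes T3 from its precursor T4, and on the deiodinase encoded by Dio3, which inactivates both hormones. In the oligodendrocyte lineage T3 is known as a signal that times the exit of precursors from division and their differentiation.

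The series holds 27 Affymetrix rat arrays of total RNA from oligodendrocyte precursor cells (OPCs), 3 for each of 9 groups, with 1 array per group from each of 3 rat donors. The cells were isolated from the cerebral cortex of early postnatal rats by magnetic selection for A2B5, a ganglioside on glial progenitors, and expanded in Noggin and PDGF-AA, the growth factor that keeps them dividing. The PDGF group was collected at 0 h, and the other cultures were withdrawn from PDGF and given T3, or T3 and interferon gamma (T3+IFNγ), for 8, 24, 48 or 96 h. Because the PDGF group exists at 0 h only, loss of PDGF, time in culture and exposure to T3 cannot be told apart, and every comparison with PDGF shares the same 3 arrays.

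The values are signals on the log2 scale, so a difference of 1 is a change of 2-fold. The medians of single arrays ran from 5.95 to 6.03. The quantile normalization in RMA, which the authors used, makes such medians nearly equal, so this was no separate check of the arrays. Olig1, a transcription factor of the oligodendrocyte lineage, had a mean signal of 12.67 in the PDGF group and 12.84 after 96 h in T3, and Mbp, a myelin protein, rose from 8.75 to 14.48. Markers of other cells were looked at as well. The mean over 7 astrocyte markers was between 7.38 and 8.11 in the PDGF arrays. After 96 h in T3 it was between 8.51 and 9.0, with 4 of the 7 called higher. The mean over 5 vascular markers was low, between 4.04 and 4.33 over all times in all groups, against a median of 5.99 over the whole table. The mean over 6 markers of microglia and macrophages went from 6.58 in PDGF to 5.01 after 96 h in T3, with 4 of the 6 called lower, and that over 4 neuron markers from between 6.66 and 6.95 in the PDGF arrays to between 5.73 and 6.19, with 3 of the 4 called lower. The part of these cells in the T3 comparisons was not tested. In bulk RNA, fewer cells of a type and less RNA per cell cannot be told apart. On the array, Gapdh is measured near both ends of its transcript. The 3′ signal minus the 5′ signal came to 0.37 in the 8 h T3+IFNγ array of donor 2 and 0.11 in the 24 h one, against −0.26 to 0.07 in the other 25 arrays, and values that rest on these arrays are given without them where the call changes.

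The stretches around annotated start sites are shown for the members whose behaviour differed most: Klf9 and Thrb, which rose early, and Dio3, which in T3 was highest at 96 h and was lower with IFNγ. Each stretch runs from 250 bases before to 50 bases after an annotated start, 5′ to 3′ on the gene's strand, from RefSeq (assembly GRCr8), and 5 of the 7 genes were found there (not Hr and Slco1c1). Klf9 lies on the plus strand at chr1:230126396-230126695, Thrb on the minus strand at chr15:10461397-10461696 and Dio3 on the plus strand at chr6:135106822-135107121. The Thrb window lies inside the annotated gene, whose 5′ end on this strand is at 10465231, so that end was not examined. Capitals mark matches, on either strand, to GGGTCA, a variant of the receptor half-site AGGTCA.
Klf9: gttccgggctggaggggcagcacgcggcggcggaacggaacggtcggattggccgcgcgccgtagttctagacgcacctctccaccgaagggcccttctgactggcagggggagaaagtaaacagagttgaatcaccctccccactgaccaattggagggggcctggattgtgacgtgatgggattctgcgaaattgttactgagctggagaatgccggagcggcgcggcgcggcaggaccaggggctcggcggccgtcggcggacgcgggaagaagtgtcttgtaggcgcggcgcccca
Thrb: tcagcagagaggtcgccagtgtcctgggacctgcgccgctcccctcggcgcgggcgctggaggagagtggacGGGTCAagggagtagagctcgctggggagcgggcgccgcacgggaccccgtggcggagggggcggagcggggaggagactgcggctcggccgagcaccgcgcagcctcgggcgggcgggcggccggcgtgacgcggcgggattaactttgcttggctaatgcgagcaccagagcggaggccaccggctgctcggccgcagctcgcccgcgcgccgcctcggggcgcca
Dio3: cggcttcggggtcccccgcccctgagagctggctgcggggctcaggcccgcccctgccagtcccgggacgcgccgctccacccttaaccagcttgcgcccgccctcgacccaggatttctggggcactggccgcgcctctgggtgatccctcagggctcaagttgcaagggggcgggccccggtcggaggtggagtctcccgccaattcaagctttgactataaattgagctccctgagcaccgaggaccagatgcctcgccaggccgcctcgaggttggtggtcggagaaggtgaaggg
The Thrb window held 1 match to GGGTCA, 178 bases before its start, and 13.8% of the 33469 RefSeq promoters of this length hold 1 or more. The windows of Klf9 and Dio3 held none. Neither the half-site AGGTCA (16.2% of promoters) nor DR4, the direct repeat of this half-site with 4 bases between its copies (0.00598% of promoters), was found in the windows of Klf9, Thra, Thrb, Dio2 or Dio3. These matches describe letters in a short window and were not tested as binding sites.

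After 8 h in T3, 4 of the 7 genes were higher than in PDGF and none was lower (Klf9, Thrb, Hr and Thra), where 4.17% of all probe sets were called higher and 3.64% lower. These shares rest on 2424 calls, against 189 without donor 2 and 512 without donor 3. After 24 h 5 genes were higher and 1 lower (13.6 and 12.8% of all probe sets), after 48 h 4 were higher and none lower (14.9 and 18.5%), and after 96 h 5 were higher and 1 lower (20.2 and 22.8%). Each gene is counted by its brightest probe set, and a gene was called when limma's adjusted p, over all 31042 probe sets, was below 0.05. With 1 probe set per gene, larger shares were called: 1039, 2437, 2484 and 3327 of 14217 genes higher and 763, 2530, 3648 and 4201 lower at 8, 24, 48 and 96 h. The median change of the 7 genes was 0.33, 1.27, 1.59 and 1.93 at the 4 times, and that of all probe sets between 0.00 and 0.03. Because the genes were chosen with earlier results of these data known, these counts and medians are a description only.

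**Figure D1:**
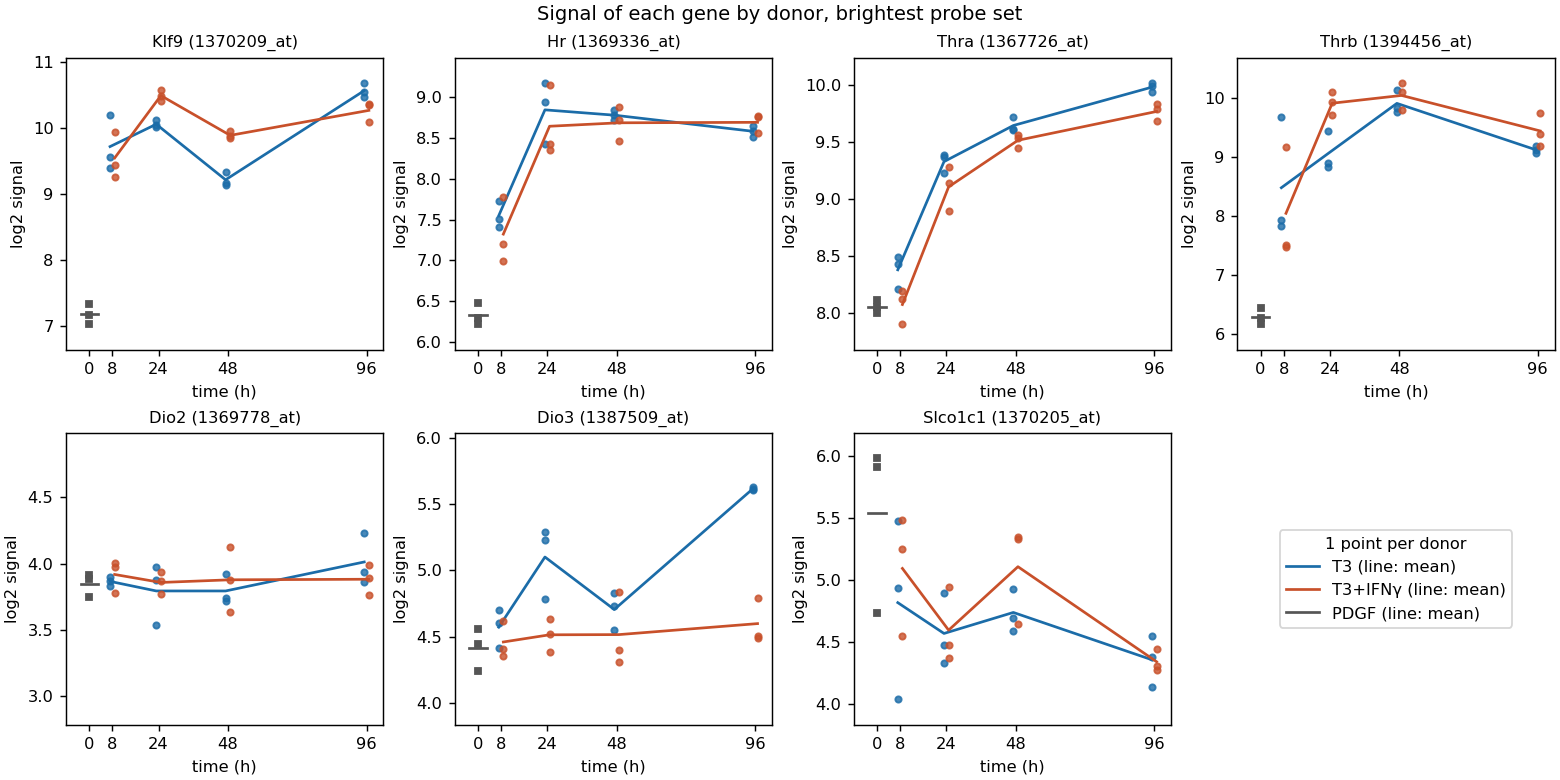
Log2 signal (vertical axis) against time in hours (horizontal axis) for the brightest probe set of each gene, 1 point per donor and array, with a line through the group means. Klf9, Hr, Thra and Thrb rise from PDGF (grey squares) in both T3 (blue) and T3+IFNγ (orange), Dio3 rises in T3 to 5.62 at 96 h but is 4.60 with IFNγ, Dio2 stays between 3.53 and 4.23, and Slco1c1 ends lower than in PDGF.

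Klf9 (chr1:230126646-230151641 in GRCr8) encodes a zinc finger transcription factor of the Krüppel-like family and is a direct target of the T3 receptors. Its brightest probe set (1370209_at) had signals of 7.33, 7.16 and 7.02 in the PDGF arrays of donors 1, 2 and 3. After 8 h in T3 they were 10.19, 9.55 and 9.40, and after 24 h 10.04, 10.01 and 10.11. After 48 h they were lower, 9.13, 9.17 and 9.33, and after 96 h 10.67, 10.54 and 10.47. Each T3 array lay above each PDGF array, and the 48 h arrays lay below those of the other 3 times in T3. The differences from PDGF were 2.54 (SE 0.16, limma adjusted p = 1.69e-09) at 8 h, 2.88 at 24 h, 2.04 at 48 h and 3.39 at 96 h, or 5.82, 7.36, 4.11 and 10.5-fold. By size of rise among the 14217 genes, Klf9 ranked 4 at 8 h, 48 at 24 h, 232 at 48 h and 126 at 96 h.

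Between successive times in T3, 3 of the 7 genes were called from 8 to 24 h (Hr, Thra and Dio3), 2 from 24 to 48 h (Klf9 and Thra) and 3 from 48 to 96 h (Klf9, Thra and Dio3), where 17.4, 13.3 and 20.0% of all probe sets were called. The course of Klf9 had 2 such steps, a fall of 0.84 from 24 to 48 h (95% interval −1.18 to −0.51, limma adjusted p = 0.000878) and a rise of 1.35 from 48 to 96 h (adjusted p = 1.45e-06), both seen in 3 of 3 donors. From 8 to 24 h the difference was 0.34 (adjusted p = 0.18), and without donor 1, whose 8 h array was the highest, it was 0.59 (adjusted p = 0.00197). The mean over the 7 astrocyte markers was also lower at 48 h, 8.33, than at 24 h, 8.82, or 96 h, 8.80. In single arrays this mean ran from 8.07 to 9.21 at 24 h and from 8.08 to 8.56 at 48 h. Of the 7 markers, 1 was called lower from 24 to 48 h (3 with the donor as a block) and 3 were called higher from 48 to 96 h (4 with the block). The part of these markers in the course of Klf9 was not tested. The 2 dimmer probe sets of Klf9 moved the same way by less: 1387882_at was higher than in PDGF by 0.98, 0.97, 0.89 and 1.82 and 1390076_at by 0.34, 0.44, 0.46 and 0.68 over the 4 times, the first called at each time and the second at 24, 48 and 96 h. The 8 h rise of 1387882_at lost its call when donor 1, 2 or 3 was left out (0.59, 1.15 and 1.21, adjusted p = 0.085, 0.14 and 0.204) and with only the groups compared (adjusted p = 0.124). Its 24 h rise lost it without donor 3 (1.01, adjusted p = 0.17) and its 48 h rise without donor 2 or 3 (0.95 and 0.84, adjusted p = 0.063 and 0.226). The fall from 24 to 48 h was not seen in these: 1387882_at had means of 6.82 and 6.74 and 1390076_at of 4.37 and 4.39.

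Hr (chr15:52036540-52056019) encodes Hairless, a nuclear corepressor that binds the T3 receptors and is itself induced by the hormone in the rodent brain. Its signals were 6.22, 6.30 and 6.48 in PDGF, 7.41, 7.72 and 7.51 after 8 h in T3, and 8.43, 9.17 and 8.94 after 24 h. At 48 h they were 8.84, 8.78 and 8.72 and at 96 h 8.52, 8.58 and 8.65. The groups of PDGF, 8 h and the later times did not overlap. The 24 h arrays overlapped with those of 48 and of 96 h, and each 48 h array lay above each 96 h array. The rise over PDGF was 1.22 (SE 0.20, limma adjusted p = 0.000593) at 8 h, 2.52 at 24 h, 2.45 at 48 h and 2.25 at 96 h, and Hr ranked 56 among the 14217 genes at 8 h. The step from 8 to 24 h was 1.30 (adjusted p = 3.58e-05), and the later steps were −0.07 (95% interval −0.48 to 0.35) and −0.20 (−0.61 to 0.21).

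Thrb (chr15:10115954-10465231) encodes the T3 receptor β. Its brightest probe set (1394456_at) had signals of 6.44, 6.27 and 6.16 in PDGF and of 9.67, 7.94 and 7.82 after 8 h in T3, so donor 1 was well above the other donors at that time. After 24 h the signals were 9.44, 8.89 and 8.82, after 48 h 10.13, 9.83 and 9.77, and after 96 h 9.19, 9.11 and 9.07. The PDGF arrays lay below all T3 arrays, and the 48 h arrays above those of the other times in T3. The rise over PDGF was 2.19 (SE 0.38, limma adjusted p = 0.0010) at 8 h, 2.76 at 24 h, 3.62 at 48 h (12.3-fold) and 2.83 at 96 h, and Thrb ranked 8 at 8 h. The 8 h call was lost without donor 2 (2.45, adjusted p = 0.0581) and with only the groups compared (adjusted p = 0.063). The 3 other probe sets peaked at 48 h as well, with rises of 2.79 (1378457_at), 1.45 (1370474_at) and 0.36 (1387983_at).

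The step of Thrb from 24 to 48 h was 0.86 (adjusted p = 0.15) and that from 48 to 96 h was −0.79 (adjusted p = 0.17), each in the same direction in 3 of 3 donors. With the donor as a block both were called (adjusted p = 0.0289 and 0.0358), and without donor 1 they were 0.94 and −0.71 (adjusted p = 6.3e-05 and 0.0005). Of the other probe sets, 1378457_at and 1387983_at were called lower from 48 to 96 h (−0.90 and −0.31, adjusted p = 0.0476 and 0.0119), and 1370474_at changed by −0.69 (adjusted p = 0.0692, and 0.0035 with the block).

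Thra (chr10:84198141-84225659) encodes the T3 receptor α, and its transcript is also spliced to a form whose product does not bind T3. Its brightest probe set (1367726_at) had signals of 8.05, 8.00 and 8.11 in PDGF, 8.43, 8.49 and 8.21 after 8 h in T3, and 9.38, 9.37 and 9.23 after 24 h. After 48 h they were 9.60, 9.71 and 9.61 and after 96 h 9.99, 10.01 and 9.94. No 2 times overlapped, and each time lay above the one before. The rise over PDGF was 1.27 (SE 0.10, adjusted p = 9.93e-10), 1.59 and 1.93 at 24, 48 and 96 h. The 8 h rise was 0.33 (adjusted p = 0.0411), a call that was lost when donor 1, 2 or 3 was left out (0.30, 0.24 and 0.44, adjusted p = 0.284, 0.417 and 0.0528) with each array centred on its median (0.30, adjusted p = 0.0629) and with only the groups compared (adjusted p = 0.162). Thra moved in T3 by 0.95 from 8 to 24 h, 0.32 from 24 to 48 h and 0.34 from 48 to 96 h, all called, and both later ones lost their call when any 1 donor was left out (adjusted p between 0.0533 and 0.207), the earlier of them also with only the groups compared (adjusted p = 0.0778).

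The other probe sets of Thra did not show this rise. For 1370691_a_at, of a mean signal of 6.80, the differences between T3 and PDGF were −0.18, 0.13, 0.01 and 0.00 at the 4 times, with 95% intervals that at 24 h and later lay within −0.29 and 0.42. The third, 1380518_s_at, had a mean signal of 2.64, and 0.177% of all probe sets were dimmer. Which transcript form each probe set measures is not given in the sources used here.

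**Figure D2:**
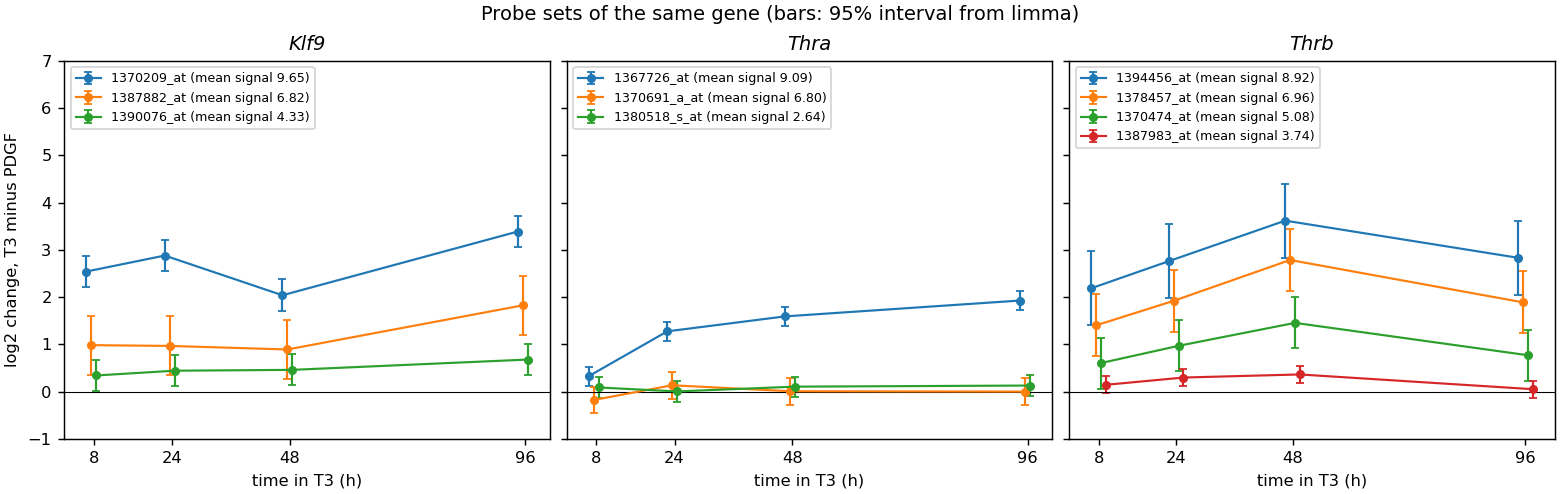
Change from PDGF to T3 on the log2 scale (vertical axis) against time in T3 in hours (horizontal axis) for every probe set of Klf9, Thra and Thrb, with 95% intervals from limma and the mean signal in the legend. All probe sets of Klf9 and of Thrb lie above 0 at each time, the brighter ones further, whereas of Thra only 1367726_at leaves 0, reaching 1.93 at 96 h.

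Dio3 (chr6:135107072-135108933) encodes the deiodinase that inactivates T3 and T4. Its signal was below the median of the whole table, 5.99, in each of the 9 groups. The PDGF arrays had 4.45, 4.56 and 4.24 and the T3 arrays 4.60, 4.70 and 4.41 after 8 h, 4.78, 5.29 and 5.23 after 24 h, and 4.83, 4.55 and 4.73 after 48 h. At 96 h the signals were 5.61, 5.61 and 5.63, above all other arrays of this gene. The 8 and 48 h arrays overlapped with PDGF. The rise over PDGF was called at 24 h (0.68, SE 0.14, limma adjusted p = 0.000654, and 0.53 with adjusted p = 0.063 without donor 3) and at 96 h (2.30-fold, adjusted p = 1.96e-07). From 48 to 96 h Dio3 rose by 0.91 (adjusted p = 4.7e-05), and from 8 to 24 h by 0.53 (adjusted p = 0.0101, 0.146 and 0.252 without donor 2 or 3, and 0.072 with only the groups compared). Between these rises its mean went from 5.10 at 24 h to 4.71 at 48 h, a step that was not called. Without donor 1 this step was −0.62 and was called (limma adjusted p = 0.00468).

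Dio2 (chr6:115396308-115410594), which encodes the deiodinase that makes T3 from T4, had group means between 3.79 and 4.01 and single arrays between 3.53 and 4.23. All neighbouring groups in the order of its levels overlapped. Its differences from PDGF in T3 were 0.02, −0.05, −0.05 and 0.17, none called, and the 95% intervals lay within −0.31 and 0.42. Only 14.4% of all probe sets were dimmer.

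Slco1c1 (chr4:176197736-176244401) encodes a transporter of T4 known from the blood-brain barrier and from astrocytes. Its signals were 4.73, 5.98 and 5.91 in PDGF, so that donor 1 lay well below the others. They were 4.33, 4.89 and 4.48 after 24 h in T3 and 4.38, 4.55 and 4.14 after 96 h in T3, the latter below each PDGF array. The change was −0.97 at 24 h (limma adjusted p = 0.0253), with groups that overlapped, and −1.19 at 96 h (SE 0.32, adjusted p = 0.0038). At 8 and 48 h it was −0.73 (adjusted p = 0.20) and −0.81 (adjusted p = 0.0568). The 24 h call was lost without donor 2 (−0.92, adjusted p = 0.152) or donor 3 (−0.74, adjusted p = 0.333), and the 96 h call too (−1.06 and −0.89, adjusted p = 0.0553 and 0.151). With only the groups compared the 24 h call was lost as well (adjusted p = 0.0707). At 48 h the change was called with the donor as a block (adjusted p = 0.0108) and without donor 1 (−1.19, adjusted p = 0.0004). The mean of the vascular markers was 4.26 in both PDGF and T3 at 96 h, and that of the astrocyte markers 7.85 and 8.80.

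The speed of each gene was expressed as the share of its change at 96 h that T3 had reached at an earlier time, in each donor. By its brightest probe set, Klf9 had reached 75.1% ± 9.24 (SD, n = 3) at 8 h and Thrb 77.8% ± 34.3, with 117% in donor 1 and 58.7 and 57.3% in donors 2 and 3. Hr had reached 54.0% ± 7.65, Thra 16.6% ± 9.83 and Dio3 13.0% ± 0.642. Over the 2097 probe sets that rose by at least 1 at 96 h and were called, the median share at 8 h was 14.3%, with quartiles of 2.43 and 31.8%. Klf9, Thrb and Hr thus lay above the upper quartile, and Thra and Dio3 near the median. Of those 2097 probe sets, 55 (2.62%) had a larger share at 8 h than Klf9, 49 (2.34%) than Thrb and 169 (8.06%) than Hr. The second probe set of Klf9, 1387882_at, stood lower and varied more, at 51.8% ± 29.8 at 8 h, with 85.9% in donor 1 and 38.5 and 30.9% in donors 2 and 3, the last below the upper quartile. At 24 h it stood at 52.0% ± 14.6.

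At 24 h Hr had reached 112% ± 14.9 and Thrb 97.6% ± 9.93 of their 96 h change, Klf9 84.9% ± 4.31, Thra 66.0% ± 4.11 and Dio3 56.6% ± 24.3, against a median of 41.4%. At 48 h Thrb stood at 128% ± 5.47 and Hr at 109% ± 5.20, Thra at 82.5% ± 2.58, Klf9 at 60.1% ± 6.59 and Dio3 at 22.5% ± 20.0, against 59.3%. At 48 h the mean shares of Hr and Thrb thus exceeded their full 96 h change, and those of the other genes did not. For Slco1c1, which fell, the share at 8 h was 95.6% with an SD of 88.0, too wide to place it.

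**Figure D3:**
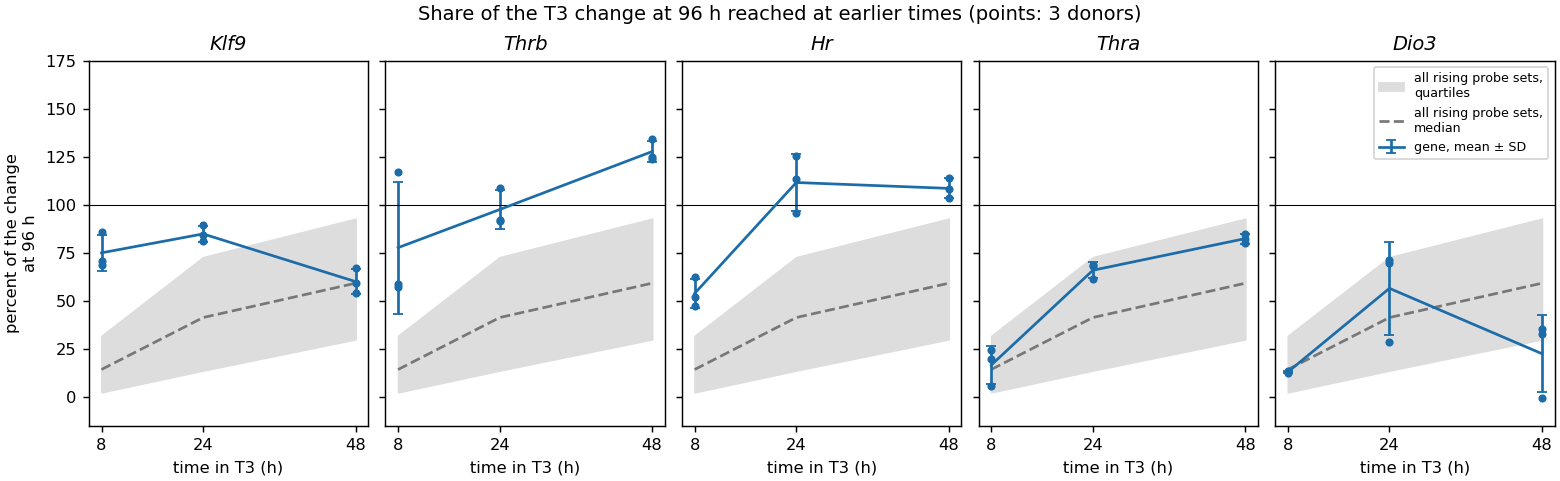
Percent of each gene's T3 change at 96 h (vertical axis) reached at 8, 24 and 48 h (horizontal axis), by its brightest probe set, as points for the 3 donors with mean ± SD, over the quartiles (grey band) and median (dashed) of the 2097 probe sets that rose by at least 1. Klf9, Thrb and Hr lie above the band at 8 h, at 75.1, 77.8 and 54.0%, and Thra and Dio3 lie within it.

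Whether IFNγ altered these levels was asked at each time by comparing T3+IFNγ with T3. None of the 7 genes was called by limma at 8 h, when 2.70% of all probe sets were called higher and 0.921% lower, and 1 of the genes, Thra, had an unadjusted p below 0.05 (0.0049). At 24 h 1 gene was called, lower (Dio3, with 4.28% of all probe sets called higher and 4.38% lower). At 48 h 1 was called, higher (Klf9, with 5.64 and 6.35% of all probe sets), and at 96 h 1, lower (Dio3, with 5.51 and 4.58%). With the donor as a block, Thra at 8 h and Thrb at 24 h were called in addition.

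Against PDGF, 3, 5, 4 and 5 of the 7 genes were called in T3+IFNγ over the 4 times, with 13.1, 31.1, 32.3 and 39.6% of all probe sets called. Klf9 was higher by 2.37, 3.31, 2.71 and 3.09, Hr by 0.99, 2.32, 2.36 and 2.36, and Thrb by 1.75, 3.62, 3.75 and 3.15, all called, so these 3 genes rose with IFNγ present at each time. Thra did not differ detectably at 8 h (0.02, 95% interval −0.18 to 0.22, limma adjusted p = 0.95) and rose by 1.05, 1.46 and 1.71 later, by its brightest probe set. Its second probe set, 1370691_a_at, did not rise and at 96 h was called lower than in PDGF (6.52 against 6.87, a difference of −0.34, 95% interval −0.63 to −0.06, with an adjusted p only just below the threshold). Slco1c1 was called lower at 24 h (−0.95, adjusted p = 0.0257) and 96 h (−1.20, adjusted p = 0.0037).

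Among the 7 genes, Dio3 showed the largest difference with IFNγ, at 96 h. In the T3+IFNγ arrays of 8 h its signals were 4.62, 4.41 and 4.35, and in those of 24 h 4.64, 4.39 and 4.52. The 48 h arrays gave 4.84, 4.40 and 4.31 and the 96 h arrays 4.49, 4.51 and 4.80. All 4 groups overlapped with PDGF. The differences from PDGF in T3+IFNγ were 0.04, 0.10, 0.10 and 0.18, none called, and the 95% interval at 96 h was −0.11 to 0.48. Against T3, Dio3 was lower by 0.59 at 24 h (SE 0.14, limma adjusted p = 0.0088) and by 1.02 at 96 h (2.02-fold, 95% interval −1.31 to −0.72, adjusted p = 1.69e-05), without overlap and in 3 of 3 donors at both times. The 96 h call held under each alternative tried. Of these, the filter on dim probe sets was no check of it. Dio3 passed that filter only through its T3 means at 24 and 96 h, 5.10 and 5.62. The 24 h call was lost without donor 2 (−0.43, adjusted p = 0.344), without donor 3 (−0.53, adjusted p = 0.166), with only the 6 arrays compared (adjusted p = 0.0704) and without the single T3+IFNγ array of donor 2 (−0.52, adjusted p = 0.0528). At 8 and 48 h the differences were −0.11 and −0.19, not called. The mean over 6 markers of microglia and macrophages was between 4.79 and 5.16 in T3 at 96 h and between 5.48 and 7.07 in T3+IFNγ, with 1 of the 6 called higher (4 with the donor as a block), and its part in the difference of Dio3 was not tested. The difference with IFNγ at 96 h exceeded that at 8 h by 0.91 in size (adjusted p = 0.0113, 2.96% of all probe sets called, and adjusted p = 0.187 and 0.132 without donor 2 or 3). Against 24 h it exceeded by 0.43 in size (adjusted p = 0.41, 1.79% of all probe sets called) and against 48 h by 0.83 (adjusted p = 0.0277, 1.93%, and not called when any 1 donor was left out), comparisons chosen after the values were seen.

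Klf9 was higher with IFNγ at 48 h, with signals of 9.94, 9.84 and 9.87 in T3+IFNγ against 9.13, 9.17 and 9.33 in T3. The groups did not overlap, and the difference was 0.67 (1.59-fold, SE 0.16, limma adjusted p = 0.0063, higher in 3 of 3 donors), lost without donor 2 (0.67, adjusted p = 0.128) or donor 3 (0.74, adjusted p = 0.0701). At 24 h the signals were 10.40, 10.57 and 10.49 against 10.04, 10.01 and 10.11, also without overlap, a difference of 0.43 that was not called (adjusted p = 0.11) and was called without donor 1 (0.47, adjusted p = 0.0193). At 8 h the difference was −0.17 (95% interval −0.51 to 0.16) and at 96 h −0.30 (−0.63 to 0.04). The dimmer 1387882_at did not show the rise at 48 h: its difference was 0.03 (95% interval −0.59 to 0.66). The mean over the 7 astrocyte markers at 48 h was between 8.71 and 8.89 in T3+IFNγ and between 8.08 and 8.56 in T3. Only 1 of the 7 was called higher (2 with the donor as a block), and the part of these markers in the difference of Klf9 was not tested.

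In T3+IFNγ the steps were called for 18.3, 10.4 and 17.4% of all probe sets. By its brightest probe set, Klf9 was again lower at 48 h than at 24 and 96 h. It rose by 0.94 from 8 to 24 h (limma adjusted p = 0.000135, and 0.76 with adjusted p = 0.0547 without donor 2), fell by 0.60 from 24 to 48 h (adjusted p = 0.0171), and the next step was 0.38 (adjusted p = 0.12). The fall lost its call without donor 2 or 3 (adjusted p = 0.281 and 0.188). Of the dimmer probe sets, 1387882_at had means of 7.07, 6.78 and 7.26 at 24, 48 and 96 h in T3+IFNγ. The other, 1390076_at, showed no lower level at 48 h, with 4.26, 4.36 and 4.39. These steps within T3+IFNγ were chosen after the values were seen.

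Thrb had signals of 10.10, 9.93 and 9.71 at 24 h in T3+IFNγ against 9.44, 8.89 and 8.82 in T3, with no overlap and higher in 3 of 3 donors. The difference of 0.86 (SE 0.38) had an adjusted p of 0.19, of 0.0382 with the donor as a block, and of 5.93e-05 without donor 1 (0.96). The next probe set, 1378457_at, gave 0.83 (adjusted p = 0.12, and 0.0182 with the block). At 8 h the difference of 1394456_at was −0.43 (95% interval −1.22 to 0.35), at 48 h 0.13 and at 96 h 0.32. In T3+IFNγ Thrb rose by 1.87 from 8 to 24 h (adjusted p = 0.000812, and 0.0968 and 0.0577 without donor 2 or 3), to a level that overlapped with that of T3 at 48 h.

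By its brightest probe set, Thra was lower with IFNγ in 3 of 3 donors at each of the 4 times, by 0.30, 0.22, 0.13 and 0.21, with adjusted p between 0.10 and 0.48 and no call. At 8 h its signals were 8.12, 8.19 and 7.90 in T3+IFNγ against 8.43, 8.49 and 8.21 in T3, close to the PDGF arrays, and with the donor as a block the difference was called (adjusted p = 0.0369). Hr differed by −0.23, −0.20, −0.09 and 0.11 with overlap at each time, and its 95% intervals lay within −0.64 and 0.52. The intervals of Dio2 lay within −0.39 and 0.34 and those of Slco1c1 within −0.68 and 1.03.

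**Figure D4:**
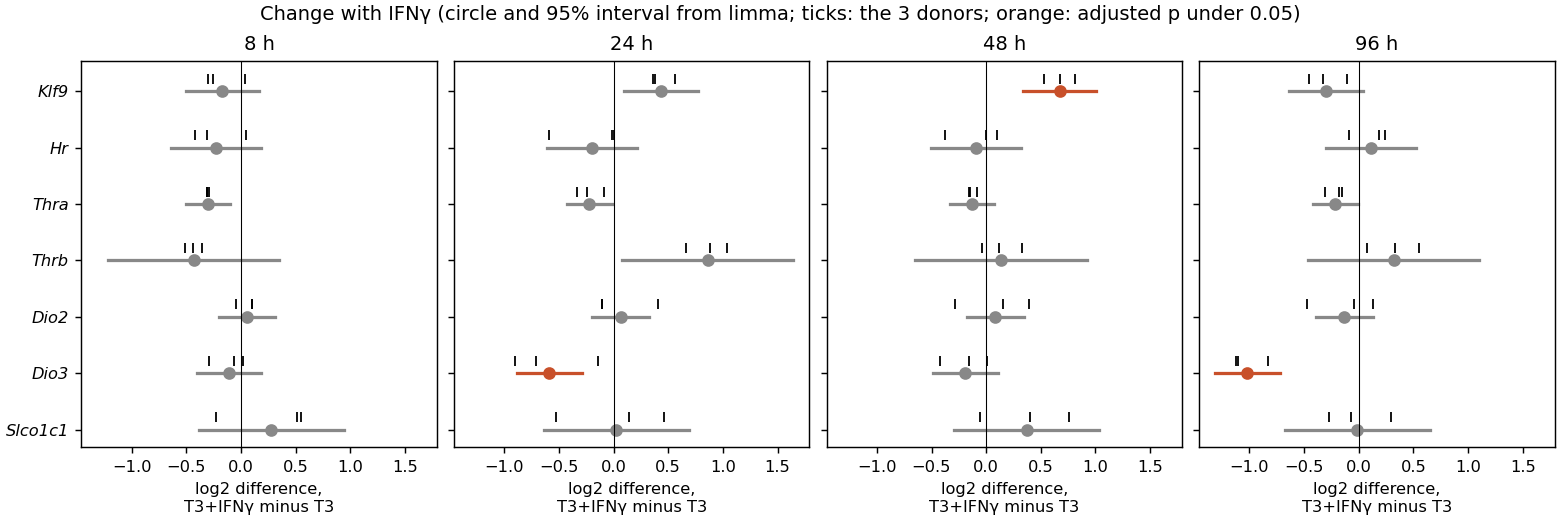
Difference of T3+IFNγ minus T3 on the log2 scale (horizontal axis) for the brightest probe set of each gene at 8, 24, 48 and 96 h, as the estimate with its 95% interval from limma (circle and bar) and the 3 donors (ticks). In orange are the 3 called differences: Dio3 at 24 h (−0.59) and 96 h (−1.02) and Klf9 at 48 h (0.67).

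The other genes of the hormone system were taken as lists, given as counts of called members, to be read against the shares of all probe sets called at the same time. The hormone-binding protein Crym, a cytosolic protein that binds T3, was the gene of these lists that moved most early. Its signals were 6.91, 6.90 and 7.07 in PDGF and 10.78, 9.90 and 9.42 after 8 h in T3, and 12.04, 11.47 and 11.53 after 24 h. It was higher than in PDGF by 3.07, 4.72, 4.26 and 3.98 at the 4 times (limma adjusted p between 3.52e-11 and 1.14e-06). Ttr, which carries thyroid hormone in plasma and cerebrospinal fluid, and the third deiodinase, Dio1, were not called.

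With IFNγ the Crym signals of the 8 h arrays were 9.25, 8.46 and 8.06 and those of the 24 h arrays 10.38, 10.41 and 10.08. The 48 h arrays gave 9.79, 9.54 and 9.15 and the 96 h arrays 10.66, 9.90 and 9.76. All were below the T3 arrays of the same time and above PDGF. The differences were −1.45, −1.39, −1.73 and −0.84, lower in 3 of 3 donors at each time, with adjusted p of 0.0024, 0.0022 and 0.000159 at 8, 24 and 48 h. Without donor 2 the first pair was no longer called (adjusted p = 0.219 and 0.0929), nor the 8 h one with only the groups compared (adjusted p = 0.194), and at 96 h the difference was called with the donor as a block (adjusted p = 0.00728) and without donor 1 (−1.14, adjusted p = 0.000426).

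Of 5 further transporters, Slc7a5, a large neutral amino acid transporter that also carries thyroid hormone, was lower in T3 by 1.55, 1.89 and 2.31 at 24, 48 and 96 h (adjusted p = 0.0025, 0.000282 and 1.63e-05). Slc16a10, which carries T3 and aromatic amino acids, was higher at 96 h by 0.52 (adjusted p = 0.0031) and lower with IFNγ by 0.68 at that time (adjusted p = 0.0014). Slc7a8, Slco1a4 and Slco4a1 were not called in either set of comparisons, and with the donor as a block Slc7a8 was called higher in T3 at 96 h (0.32, adjusted p = 0.0128).

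Of the 3 retinoid X receptors, the dimer partners, Rxrb was higher in T3 at 24 h (0.52, adjusted p = 0.0079) and Rxrg at 96 h (0.28, adjusted p = 0.0436), and none was called with IFNγ. With the block Rxrb was called at 8 h too (0.44, adjusted p = 0.0277). Of 5 corepressor genes, 2, 3 and 3 were lower in T3 at 24, 48 and 96 h and none higher, where 12.8, 18.5 and 22.8% of all probe sets were called lower: Tbl1x fell by 0.46, 0.89 and 0.84, Tbl1xr1 by 0.50, 0.99 and 0.81, and Ncor1 by 0.42 and 0.34 at the last 2 times. With IFNγ, Nrip1 was higher at 48 h (0.60, adjusted p = 0.0107) and 96 h (0.49, adjusted p = 0.0448) and Tbl1x at 48 h (0.42, adjusted p = 0.0084). Of 6 coactivators, Ncoa1 was lower in T3 by 0.44 at 48 h and 0.59 at 96 h, and Ep300 was higher with IFNγ at 48 h (0.34, adjusted p = 0.0428). The block added Nrip1 (−0.31, adjusted p = 0.0413) and Crebbp (−0.37, adjusted p = 0.0042) in T3 at 96 h, and Nrip1 with IFNγ at 24 h (0.41, adjusted p = 0.0273).

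Of 8 other genes known to respond to thyroid hormone, 1, 3, 5 and 4 were higher than in PDGF at 8, 24, 48 and 96 h, where 4.17, 13.6, 14.9 and 20.2% of all probe sets were called higher, and 1 was lower from 24 h on. Klf15, a relative of Klf9, rose by 0.72, 1.31, 1.21 and 2.06, the 8 h value losing its call without donor 2 or 3 (adjusted p = 0.106 and 0.0773). With IFNγ it was higher by 0.79 at 24 h (adjusted p = 0.0014, 0.0803 without donor 2 and 0.0909 with only the groups compared), when the difference of Klf9 was 0.43, not called. Aldh1a1, an enzyme that makes retinoic acid, rose by 2.07, 1.40 and 3.03 at 24, 48 and 96 h and was higher with IFNγ at the same times by 1.37, 2.06 and 1.44 (adjusted p = 0.000228, 6.96e-07 and 0.0001). At 8 h its difference with IFNγ was 0.76, not called (adjusted p = 0.076), and it was called with the donor as a block (adjusted p = 0.0102) and with only the groups compared (adjusted p = 0.0179).

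Me1, malic enzyme, was higher at 48 h (0.91, adjusted p = 0.0136), and with the block also at 96 h (0.63, adjusted p = 0.0018) and lower with IFNγ at 48 h (−0.46, adjusted p = 0.0472). Thrsp, a regulator of fatty acid synthesis, rose by 2.71 at 48 h and 1.73 at 96 h (adjusted p = 0.00071 and 0.0191), the latter lost without donor 2 or 3 (adjusted p = 0.126 and 0.0769). At 24 h its difference was 1.43 (adjusted p = 0.0761), called with the block (adjusted p = 0.000227) and without donor 1 (1.67, adjusted p = 3.88e-05). With IFNγ Thrsp differed by 1.63 at 96 h, higher in 3 of 3 donors without overlap (adjusted p = 0.0839), which was called with the block (adjusted p = 0.000157), without donor 1 (2.05, adjusted p = 1.37e-05) and with only the groups compared (adjusted p = 0.046). Mbp rose by 4.06, 5.53 and 5.73 from 24 h on (and at 8 h by 0.82 with the block, adjusted p = 0.0298) and was lower with IFNγ by 1.31 at 24 h (adjusted p = 0.0025). Its T3 means at 48 and 96 h, 14.28 and 14.48, lay near the highest value of the whole table, 14.49, so the rises at these times may be understated and differences with IFNγ there cannot be read from this probe set. Mag, another myelin protein, differed with IFNγ by −1.56 at 48 h and −0.89 at 96 h (adjusted p = 1.21e-05 and 0.0063). Nrgn, a calmodulin-binding protein known as a hormone target in neurons, fell by 2.26, 1.69 and 2.47 at 24, 48 and 96 h, and with IFNγ the difference at 48 h was −1.0 (adjusted p = 0.000399). Of the 4 neuron markers, 2, 3 and 3 were called lower in T3 at these times and none was called with IFNγ. Stmn2, a neuronal protein that binds tubulin, went from 8.39 in PDGF to 6.40 after 96 h, and the part of these cells in the fall of Nrgn was not tested.

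**Figure D5:**
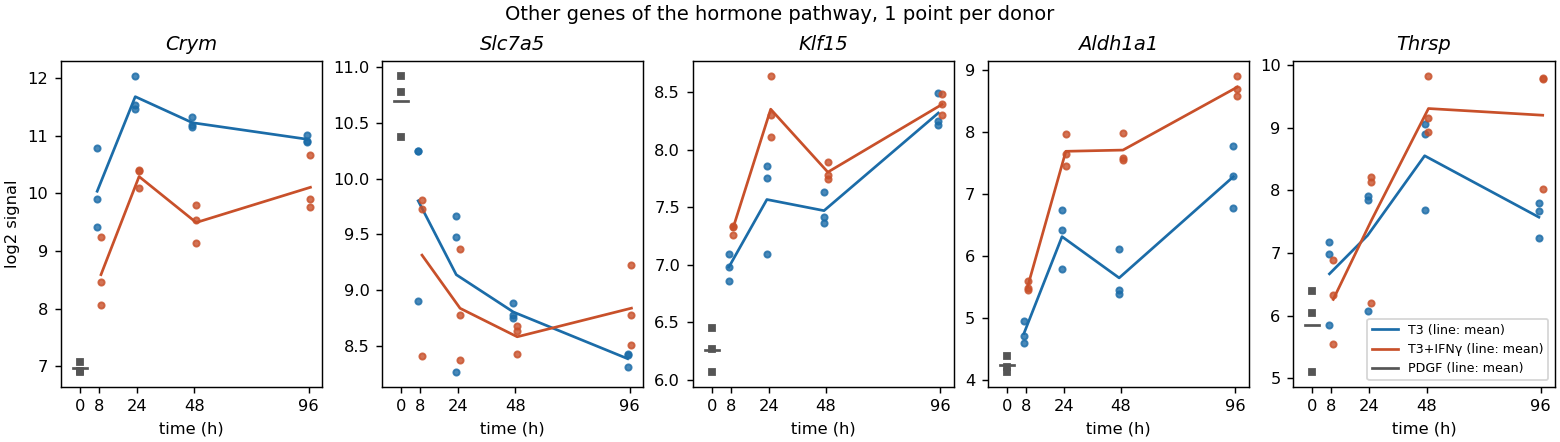
Log2 signal (vertical axis) against time in hours (horizontal axis) for 5 other genes of the hormone system, 1 point per donor and array with a line through the group means. Crym in T3+IFNγ (orange) lies below T3 (blue) at each time, Aldh1a1 lies above it, Slc7a5 falls in both, and the donors of Thrsp lie far apart at 24 h.

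Over the 9 group means, the 3 genes with a course most like that of Klf9 were Ivd (Pearson r = 0.977), Nudt18 (0.963) and Ddit4 (0.953). For Hr they were Iffo1 (0.993), Bmp4 (0.986) and Pikfyve (0.986), and for Thra Rab3a (0.994), Frmd5 (0.993) and Tprn (0.989). For Thrb they were Prkcq (0.960), Zfp46 (0.948) and Bmp4 (0.948), so that Bmp4, a secreted growth factor, was close to both Hr and Thrb. For Dio3 they were Ccdc81 (0.965), Ggact (0.956) and Gng8 (0.949), and for Slco1c1 Sfrp4 (0.986), Ubash3b (0.975) and Ccnd1 (0.971). These were the highest among 4586 genes whose group means spanned at least 1, over 9 points that share arrays, donors and the PDGF group, and the values are a description only.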

How the data were processed

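Gene expression was measured on Affymetrix rat arrays in 27 samples of total RNA, and the deposited table of the series holds 31099 probe sets. Its values are log2 signals, which the authors obtained by RMA (background correction, quantile normalization and a summary per probe set), per the submitters' processing notes, which name RMA without its steps. The notes name limma too, with no version. No value was transformed further, 57 control probe sets were left out, and 0 columns belonged to other samples. Of the probe sets in the table, 20832 carry 1 gene symbol in the platform annotation, 436 several and 9831 none.

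The 9 group means were fitted for 31042 probe sets with limma 3.58.1 (lmFit and eBayes, R 4.3.3), p-values were adjusted within each comparison by the Benjamini-Hochberg method, and an adjusted p below 0.05 was called. Tables and figures were made with Python 3.11.15, pandas 2.3.3, NumPy 2.4.6 and matplotlib 3.10.9. Each gene was represented by the probe set whose mean over the arrays was highest, and every member was named, called or not. Of each pathway list the called genes with the 4 largest changes were named (and other called ones, chosen after their values were seen), and of the genes whose group means spanned at least 1 the 3 most alike in course to each member. Some items of the lists are not reported here. The members and the lists were chosen with earlier results of these data known.

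Same-numbered samples come from the same donor, per the labels. Their deviations from the group means correlated (median r = 0.31 over 108 pairs, against −0.17 over 216 pairs of different donors), and 27 of 27 arrays were closest to their own donor. The donor as a block was an alternative, beside median centring of each array, 1 probe set per gene, a trend in the prior variance and only the groups compared. Others were leaving out each donor and, separately, leaving out each of 2 single arrays with the widest Gapdh difference. A filter on dim probe sets kept those with a mean of 5 or more in at least 1 group. Dio3 and Slco1c1 passed it only through the groups in which they were highest. Background correction and normalization were not varied, since scanner files were not used here. With 3 arrays per group, their number limits the precision. On simulated data for T3+IFNγ against T3 at 96 h, 94% of 50 probe sets raised by 1 were called, and 56% of those raised by 0.585, with 12 false calls among 31042.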

Additional observations from a re-analysis of the deposited data

Results flagged for a closer look

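The difference made by IFNγ was compared between times, and 3 values passed the test of that comparison. For Dio3, T3+IFNγ minus T3 was −1.02 at 96 h and −0.11 at 8 h, a difference of −0.91 (SE 0.20, limma adjusted p = 0.0113, with 2.96% of all probe sets called), which was not called without donor 2 or donor 3 (adjusted p = 0.187 and 0.132). Between 96 and 48 h the Dio3 difference changed by −0.83 (adjusted p = 0.0277, with 1.93% of all probe sets called), and this was not called when donor 1, 2 or 3 was left out (adjusted p = 0.0877, 0.543 and 0.115). For Klf9, T3+IFNγ minus T3 was 0.67 at 48 h and −0.30 at 96 h, a difference of −0.97 (adjusted p = 0.0222), not called without donor 2 or donor 3 (adjusted p = 0.562 and 0.168). The comparison of 96 with 48 h was chosen after the values were seen. Between 96 and 24 h neither gene passed the test (Klf9 −0.73, adjusted p = 0.13, and Dio3 −0.43, adjusted p = 0.41, with 1.79% of all probe sets called).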

How the results depend on the processing

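Of 48 called results, 27 kept their call under each alternative they were compared in (40 of the 48 could be compared with 1 probe set per gene, and 6 and 5 without the 8 h or the 24 h T3+IFNγ array of donor 2). Calls lost numbered 1 with median centring, 9 with only the groups compared, and 5, 19 and 19 without donors 1, 2 and 3, where fewer arrays enter, 1 without the 24 h T3+IFNγ array of donor 2, and 0 with the donor as a block, the trend, the filter on dim probe sets, 1 probe set per gene or without the 8 h array. The block added 7 calls, the fit without donor 1 added 12 and that with only the groups compared 8. Of the 7 genes, the T3 comparison at 8 h called 4, against 2 with only the groups compared and 2 to 3 with a donor left out. With IFNγ the calls were 0 at 8 h (1 with the replicate block), 1 at 24 h (2 with the replicate block, 2 with only the groups compared, 0 to 3 with a donor left out), and 1 at 48 h (0 to 1). The T3 step from 8 to 24 h called 3 (2 to 5), that from 24 to 48 h 2 (1 to 3), and the comparison of 96 with 8 h 1 (0 to 1). Over all probe sets the T3 calls at 8 h numbered 2424, 3892 with the block, 320 with only the groups compared and 189 to 1938 with a donor left out. Those of T3+IFNγ against T3 numbered 1125, 2691, 3724 and 3132 at the 4 times, 1637, 3977, 5141 and 4523 with the block, and without donor 2 555, 988, 1467 and 1666.

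Changes of sign touched uncalled values only. In T3 against PDGF, Dio2 at 8 h was −0.0061 with median centring and −0.014 to 0.0362 with a donor left out, and at 24 h −0.1084 to 0.0254. In T3+IFNγ against T3, with a donor left out, Dio2 ranged from −0.1053 to 0.1487 at 24 h, −0.0674 to 0.2709 at 48 h and −0.2588 to 0.0393 at 96 h, and Slco1c1 from −0.1913 to 0.3024 at 24 h and −0.1733 to 0.1119 at 96 h. At 48 h Klf9 1387882_at ranged from −0.2421 to 0.1925, Hr from −0.1901 to 0.0496 and Thrb 1378457_at from −0.1028 to 0.2239. Thrsp at 24 h was 0.24, −0.0691 without the T3+IFNγ array of donor 2 and 0.2926 at most with a donor left out. Hr steps ranged from −0.3042 to 0.0981 (24 to 48 h in T3), −0.1233 to 0.2022 (24 to 48 h in T3+IFNγ) and −0.1387 to 0.0907 (48 to 96 h in T3+IFNγ), and the Dio2 difference between 96 and 8 h from −0.285 to 0.0124. The share of Dio3 at 8 h was 10.7% with median centring. Causes were not tested. Dio2, Dio3 and Slco1c1 are dim, so small differences in them are least certain.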
